A study of Homo sapiens with 8 samples.

Results

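Chromosome 17 carried 1197 macroH2A1 domains across 4 CUT&RUN libraries of HepG2 cells, out of 31673 domains in the whole set, and 200 of the 4474 regions in which macroH2A1 was compared between conditions. All domains and all tested regions whose chromosome is 17 were taken, whatever their values. HepG2 is a human liver cancer line, labelled as hepatoblastoma, in which chromosome 17 is among the gained chromosomes. The 2 groups were cells treated with siRNA against ANP32B (siANP32B, 2 libraries) and cells treated with a non-targeting siRNA (siControl, 2 libraries), each harvested 3 days after transfection and profiled with an antibody against macroH2A1. A single siRNA was given for each group, the cells were thawed from frozen stocks, and nothing in the labels says whether replicates came from separate cultures, so the spread between libraries may be technical. The 4 IgG libraries of the same cells were not analysed here. CUT&RUN uses a nuclease tethered to the antibody to cut DNA around the antibody's target, and sequences the fragments set free. The files hold domain calls and no read numbers, so sequencing depth is unknown, and neither the fall in ANP32B nor the liver identity of the cells could be checked in them.

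MacroH2A1 is a variant of histone H2A with a large globular macro domain attached to its tail. It is found in broad stretches of chromatin, mostly over genes that are silent in the cell type, and on the inactive X chromosome. ANP32B is an acidic protein that binds histones and is studied here as a chaperone of macroH2A. Chromosome 17 is gene-rich and carries several gene families in tight clusters, among them the type I keratins of epithelia and hair, the HOXB genes of body patterning, and the ABCA lipid transporters.

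The 5 promoters printed here were picked from stretches that kept their domain and from stretches that were in domains of one group only. Each runs from 250 bases before to 50 bases after the gene's start, 5′ to 3′ on the gene's strand, from RefSeq (GRCh38.p14), with every CpG in capitals. The start sites of KRT20 (an intestinal keratin) and G6PC1 (the last enzyme of gluconeogenesis) lay in a domain in all 4 libraries. Those of MRPL58 (a mitochondrial ribosomal protein) and SPATA20 (a testis-expressed protein) lay in a domain in both siANP32B libraries and in neither siControl library. That of MYADML2 lay in a domain in neither siANP32B library and in both siControl libraries.
KRT20, chr17:40885193-40885492, minus strand: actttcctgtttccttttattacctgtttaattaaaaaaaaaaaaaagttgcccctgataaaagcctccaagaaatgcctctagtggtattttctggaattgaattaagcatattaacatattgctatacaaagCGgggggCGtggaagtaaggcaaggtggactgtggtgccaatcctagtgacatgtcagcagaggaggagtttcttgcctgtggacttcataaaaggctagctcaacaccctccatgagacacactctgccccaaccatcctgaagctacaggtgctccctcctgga
G6PC1, chr17:42900549-42900848, plus strand: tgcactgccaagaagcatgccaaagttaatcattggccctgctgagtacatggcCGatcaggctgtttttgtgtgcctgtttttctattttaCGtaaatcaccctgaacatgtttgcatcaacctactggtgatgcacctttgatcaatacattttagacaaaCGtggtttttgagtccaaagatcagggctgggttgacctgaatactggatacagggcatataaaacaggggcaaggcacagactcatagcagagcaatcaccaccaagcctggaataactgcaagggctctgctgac
MRPL58, chr17:75012420-75012719, plus strand: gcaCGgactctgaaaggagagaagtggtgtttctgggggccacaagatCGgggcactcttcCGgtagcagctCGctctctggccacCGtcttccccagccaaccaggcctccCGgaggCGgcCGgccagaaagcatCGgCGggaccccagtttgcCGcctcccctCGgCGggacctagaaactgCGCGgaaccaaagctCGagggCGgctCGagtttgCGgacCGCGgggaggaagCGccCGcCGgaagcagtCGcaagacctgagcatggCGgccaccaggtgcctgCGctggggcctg
SPATA20, chr17:50546924-50547223, plus strand: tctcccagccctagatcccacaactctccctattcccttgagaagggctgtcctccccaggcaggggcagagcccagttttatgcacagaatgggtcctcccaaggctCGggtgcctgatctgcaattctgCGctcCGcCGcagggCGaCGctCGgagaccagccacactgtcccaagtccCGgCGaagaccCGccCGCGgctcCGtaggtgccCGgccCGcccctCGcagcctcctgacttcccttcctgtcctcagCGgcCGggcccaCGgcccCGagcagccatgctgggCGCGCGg
MYADML2, chr17:81947184-81947483, minus strand: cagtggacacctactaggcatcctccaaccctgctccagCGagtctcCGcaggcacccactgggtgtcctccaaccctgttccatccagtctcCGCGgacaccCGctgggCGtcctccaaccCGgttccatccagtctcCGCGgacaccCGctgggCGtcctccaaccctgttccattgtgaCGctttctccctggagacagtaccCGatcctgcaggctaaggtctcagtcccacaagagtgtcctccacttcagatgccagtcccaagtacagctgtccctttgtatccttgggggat
The 300 bases held 2 CpG in KRT20, 3 in G6PC1, 27 in MRPL58, 23 in SPATA20 and 13 in MYADML2. They are examples of single promoters and stand for no set.

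After ANP32B knockdown, macroH2A1 on chromosome 17 was called in fewer and longer domains. The domain count was 282 and 249 in the siANP32B libraries, against 340 and 326 in the siControl libraries (265.5 ± 23.3 and 333 ± 9.90, SD, n = 2 each). The median domain length was 71.5 and 66 kb in siANP32B cells, against 48.5 and 52 kb in siControl cells. In both measures the groups did not overlap, and the exact two-sided permutation test gave p = 0.33, the smallest value that 2 against 2 libraries allow. The whole domain list also held fewer domains in siANP32B libraries, 7530 and 7404, against 8623 and 8116 in siControl libraries. On chromosome 17 the groups also separated in long domains, which were counted on this chromosome alone. Domains over 200 kb numbered 38 and 30 in siANP32B libraries, against 20 and 15 in siControl libraries. They held 41.7 and 40.6% of all chromosome 17 domain length in siANP32B libraries, against 22.1 and 17.9% in siControl libraries, a mean difference of 21.1 points. This difference shrank to 5.94 points when a common minimum score was required (the median score of all domains of the 4 libraries), and to 5.38 points with equal numbers of best-scored domains per library. The longest single domain was 698 and 806 kb in the siANP32B libraries and 601 and 551 kb in the siControl libraries. The same order of median lengths was seen on the other autosomes, at 47 and 47 kb in siANP32B cells and 38 and 38 kb in siControl cells.

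**Figure D1:**
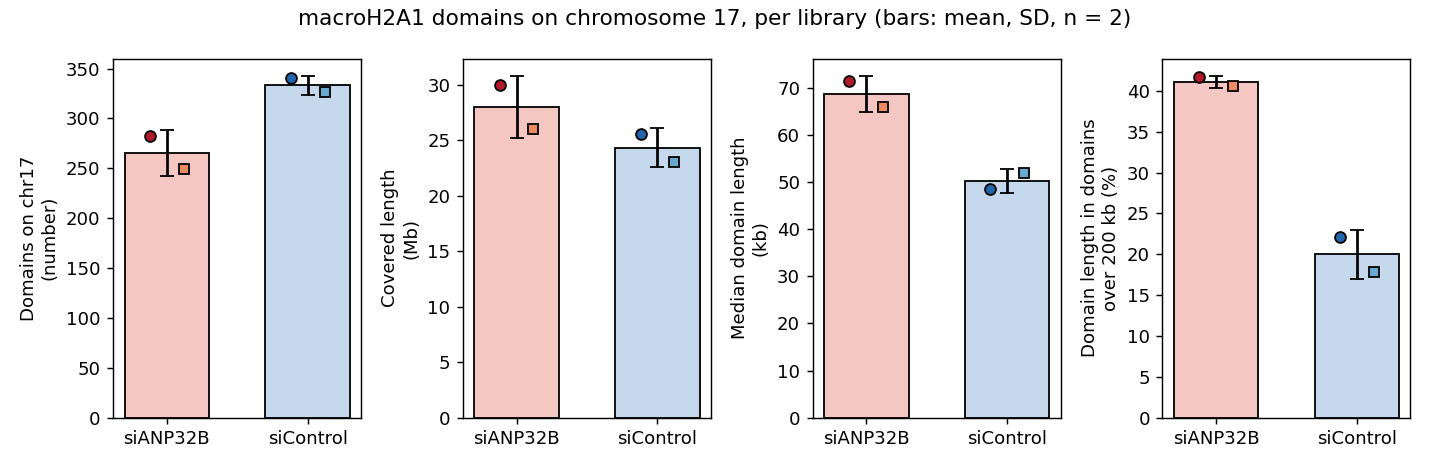
Domains on chromosome 17 in the 2 siANP32B and 2 siControl libraries: number, covered length (Mb), median length (kb) and share of domain length in domains over 200 kb (%). Points are libraries, bars are means and whiskers SD (n = 2). The groups separate in number, median length and long-domain share, with 41.7 and 40.6% against 22.1 and 17.9% in the last, and lie closest in covered length.

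The length of chromosome 17 in domains was 30.0 and 26.0 Mb in siANP32B libraries, against 25.6 and 23.1 Mb in siControl libraries. That is 36.0 and 31.3% of the 83.241 Mb considered in siANP32B cells, and 30.7 and 27.7% in siControl cells. The mean difference of 3.70 Mb stood beside a pooled SD of 2.35 Mb, with exact permutation p = 0.33. The siANP32B domains carried lower caller scores: the median score on chromosome 17 was 65.1 and 62.5 in siANP32B libraries, against 88.8 and 90.2 in siControl libraries. On the other autosomes it was 70.1 and 67.4 in siANP32B libraries, against 88.2 and 97.4 in siControl libraries. With the common minimum score, covered length turned round, to 9.42 and 7.55 Mb in siANP32B libraries and 15.4 and 14.7 Mb in siControl libraries, a difference of -6.56 Mb. With equal numbers of best-scored domains it was 0.482 Mb, and without siANP32B replicate 1 it was 1.72 Mb. Without siANP32B replicate 2 or siControl replicate 2 it was 5.68 or 2.44 Mb. The larger covered length after knockdown thus holds for the domain lists as deposited and not at a common score.

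Chromosome 17 was covered well above the rest of the genome in every library. The other autosomes were covered over 19.1 and 19.0% of their length in siANP32B cells and 17.6 and 15.8% in siControl cells. The chromosome 17 share was 1.89 and 1.65 times that of the other autosomes in siANP32B libraries, and 1.75 and 1.75 times in siControl libraries. These ratios overlapped between groups (exact permutation p = 1). Among the 22 autosomes chromosome 17 ranked 2nd in covered share in both groups, after chromosome 20, and 2nd in coding genes per Mb. High cover was not particular to it. Group means were 33.7 and 29.2% in siANP32B and siControl cells on chromosome 17, and 40.7 and 34.1% on chromosome 20. Chromosomes 16, 2, 6 and 19 ranked next in siANP32B cells, at 31.7, 29.4, 27.7 and 27.7%. In siControl cells they had 24.2, 24.4, 24.2 and 24.9%. How many reads the extra copies of chromosome 17 contributed is not in the files, and their part in this high coverage was not tested.

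Coverage was uneven along the chromosome, with the same highest and lowest steps in all 4 libraries. Over steps of 5 Mb, the step from 40 to 45 Mb, with the keratin genes and 182 coding genes in all, was covered most, over 65.1 and 54.3% of its length in siANP32B cells and 57.3 and 52.0% in siControl cells. The step from 20 to 25 Mb was covered least and held no tested region. It had 4.66 and 1.86% in siANP32B cells and 3.86 and 1.08% in siControl cells. Coding gene bodies took up 12.5% of this step, and how well reads can be placed there was not tested. The step from 10 to 15 Mb, with 23 coding genes, was covered over 10.7 and 11.2% in siANP32B cells and 9.96 and 10.0% in siControl cells. Both siANP32B libraries lay above both siControl libraries in 9 of 17 steps, and the opposite order occurred in 0. Over all autosomes 39.5% of steps had siANP32B above siControl in this way. With steps shifted by 2.5 Mb, the share on chromosome 17 was 44.4% (8 of 18 steps) in place of 52.9%. With siANP32B replicate 2 left out it was 94.1%, though fewer libraries meet this order more easily by construction.

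The step from 45 to 50 Mb, which holds the HOXB cluster, had the largest mean difference among steps whose groups did not overlap, of 9.75 points. It was covered over 57.8 and 51.3% in siANP32B cells, against 46.1 and 43.5% in siControl cells. The step from 75 to 80 Mb had a slightly larger mean difference, of 10.0 points, but its groups overlapped. There siANP32B replicate 1 reached 64.3% and replicate 2 reached 41.3%, against 47.2 and 38.4% in siControl cells. At the long-arm end, from 80 Mb on, siANP32B libraries had 37.0 and 18.7% and siControl libraries 31.5 and 20.6%, so one library of each group stood well above the other.

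**Figure D2:**
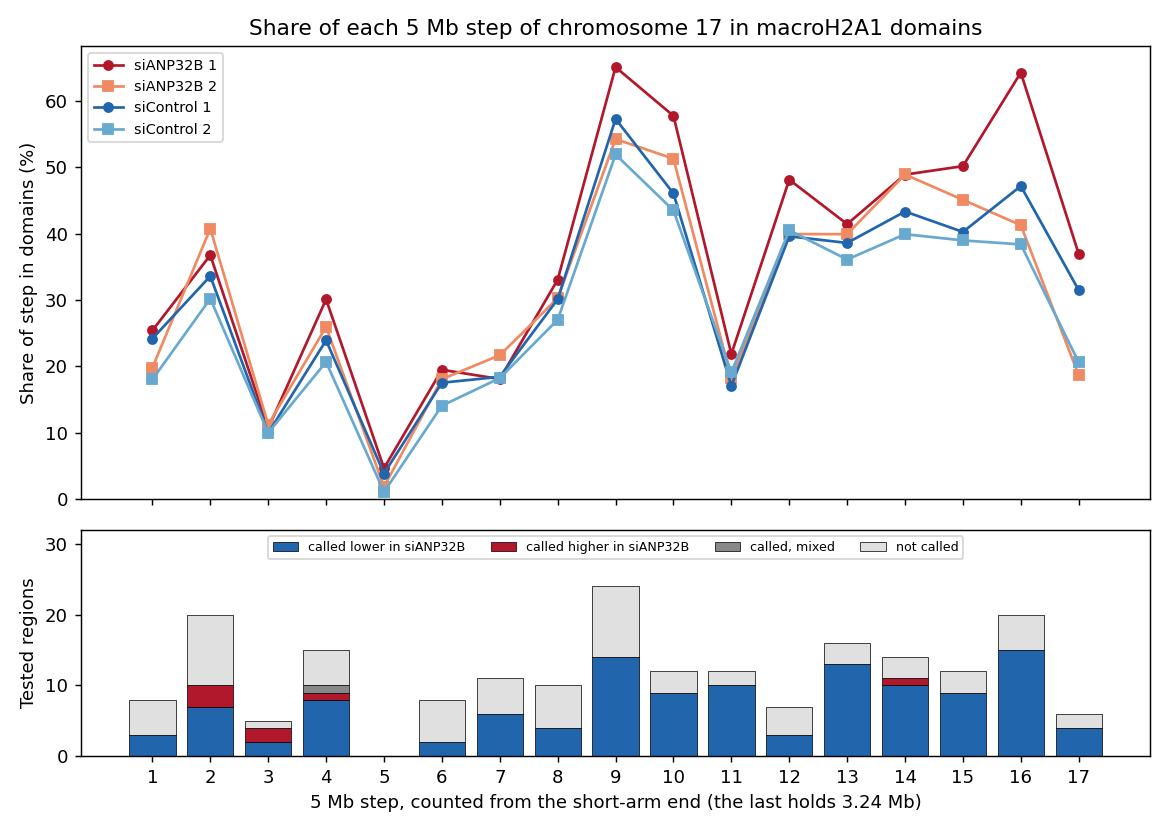
Upper panel, share (%) of each 5 Mb step of chromosome 17 in domains, with 1 line per library. Lower panel, number of tested regions per step by call in the authors' deposited table. All 4 lines are highest at the step with the keratin genes and lowest in step 5, which holds no tested region. Both replicate 1 lines are higher at 75 to 80 Mb (64.3% in siANP32B, 47.2% in siControl) than at the HOXB step (57.8 and 46.1%), unlike both replicate 2 lines. Of 7 regions called higher, 6 lie before the trough in step 5.

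The longest runs of sequence in domains of both siControl libraries were held almost whole after knockdown. The longest spanned 551 kb over ABCA8, ABCA9, ABCA6 and ABCA10 (chr17:68688001-69239000), 4 neighbouring transporters of the ABCA family. It was covered over 100 and 100% in the siANP32B libraries. The second, of 397 kb at chr17:40840001-41237000, held KRT12, KRT20, KRT23, KRT39 and KRT40 with 26 keratin-associated protein genes, and was covered over 97.2 and 100% in siANP32B cells. A separate 284 kb stretch (chr17:41468001-41752000) ran from KRT35 over the epidermal keratins KRT14, KRT16 and KRT17 to GAST and HAP1. SOX9, a regulator of cartilage, bile duct and testis development, lay alone among coding genes in 288 kb (chr17:72043001-72331000). The homeobox genes DLX4 and DLX3 shared 247 kb with the integrin gene ITGA3, and COL1A1, the main chain of type I collagen, lay in 200 kb with SGCA and XYLT2. Over the 10 longest such stretches, each siANP32B library covered 97.2 to 100%.

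Matched to the stretch of both siANP32B libraries that overlapped it most, 7 of these 10 were longer in siANP32B cells and 3 were shorter. The stretch over the ABCA genes measured 691 kb in siANP32B cells (chr17:68550001-69241000), where it took in FAM20A, against 551 kb in siControl cells. That from KRT35 to HAP1 measured 484 kb in siANP32B cells and 284 kb in siControl cells. This difference rested on breaks in siControl replicate 2, since siControl replicate 1 had a single domain of 476 kb there. The siControl libraries covered 98.1 and 95.5% of the 484 kb. The stretch with KRT20 was shorter, at 358 kb in siANP32B cells and 397 kb in siControl cells, as was that with SOX9, at 263 kb in siANP32B cells and 288 kb in siControl cells. Each of these siControl stretches overlapped 2 siANP32B stretches. The breaks lay in siANP32B replicate 1, which covered 97.2% of each, while replicate 2 covered 100%. At KRT20 siANP32B replicate 2 had a single domain of 424 kb. The third shorter stretch was that with COL1A1, at 199 kb in siANP32B cells and 200 kb in siControl cells. Among the other long stretches of both siANP32B libraries, a 686 kb stretch over CDC42EP4 and SDK2, a neuronal adhesion gene, was covered over 100 and 100% in siANP32B cells and 84.8 and 74.5% in siControl cells. A 465 kb stretch over SKAP1 and the HOXB cluster had 100 and 100% in siANP32B cells. It had 77.8 and 57.0% in siControl cells. Both stretches were picked as sequence in both siANP32B libraries, so their 100% is fixed and siControl cover cannot exceed it. Single siANP32B domains spanned 2 or more siControl domains in 15.7 to 20.9% of cases, depending on the pair of libraries. Single siControl domains spanned 2 or more siANP32B domains in 3.37 to 7.36%. Between replicates this share was 8.51 and 9.64% in siANP32B cells, and 12.4 and 8.59% in siControl cells.

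Within domains, the deposited folds of macroH2A1 were mostly lower after ANP32B knockdown. How the libraries were scaled is not given, and its part in these folds was not tested. In the authors' deposited table, 119 of the 200 chromosome 17 regions were called lower in siANP32B cells at a false discovery rate of 0.05, 7 were called higher, 1 was called mixed and 73 were not called. Over all 4474 regions 58.4% were called lower and 3.82% higher, so the chromosome 17 shares of 59.5 and 3.5% lay near the background. The median log2 fold on chromosome 17 was -0.51 in the authors' deposited table, against -0.54 over all regions, and the range ran from -1.22 to 1.03. A negative fold was read as lower in siANP32B cells. The column order is not stated. Over the whole table, the 173 called regions of positive fold lay in domains in 99.4 and 99.4% of cases in siANP32B libraries. In siControl libraries they did so in 88.4 and 80.9%. The 2614 called regions of negative fold did so in 91.7 and 93.0% in siANP32B libraries, against 96.7 and 95.3% in siControl libraries. The tested regions covered 5.28 Mb, and 96.1% of that length lay in domains of all 4 libraries. Of the 119 regions called lower, 117 and 117 still lay at least 50% in domains of the siANP32B libraries, against 118 and 119 in the siControl libraries. The authors' deposited table thus compares levels inside shared domains, and only 0.50% of the sequence found in siANP32B domains alone was tested. It gives 1 fold per region and no value per library, so the spread between replicates behind each fold is not shown.

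**Figure D3:**
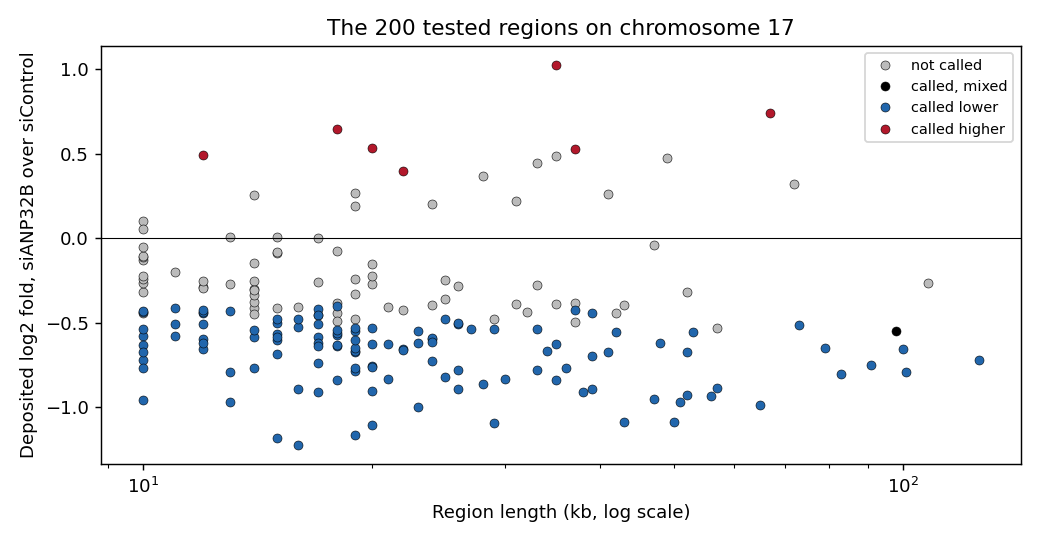
Deposited log2 fold (siANP32B over siControl) of the 200 tested regions on chromosome 17 against their length (kb, log scale), coloured by call. Most points lie below 0, with a median of -0.51, and the 7 regions called higher lie between 0.40 and 1.03.

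The regions called lower included stretches inside the longest domains. In the authors' deposited table the smallest p-value on chromosome 17 belonged to a 19 kb region at chr17:55734001-55753000 overlapping PCTP, which encodes a phosphatidylcholine carrier, with a log2 fold of -1.17 and a false discovery rate of 1.18e-09. A 29 kb region (chr17:74703001-74732000) within RAB37 and overlapping CD300LF, an inhibitory receptor of myeloid cells, had a log2 fold of -1.09. The region at chr17:40499001-40549000 reached into TNS4, an adhesion-linked protein, with -1.08. The largest fall in log2 fold, of -1.22, was in 16 kb inside ASIC2, an acid-sensing ion channel gene. Beside SOX9, 65 kb without any coding gene (chr17:72127001-72192000) fell by 0.98 on the log2 scale, and 45 of 45 windows were called down in the authors' deposited table. A second region 168 kb from SOX9 stood at 50.0% of the siControl level in the authors' deposited table. The remaining 4 of the 10 regions with the smallest p-values also held no coding gene and lay nearest to LOC124904103, HS3ST3A1, AXIN2 and NACA2, with log2 folds of -1.18, -1.10, -1.09 and -0.97. Of all 119 regions called lower, 66 overlapped no coding gene, as did 102 of the 200 tested.

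The 7 regions called higher were mostly on one side of the chromosome. In the authors' deposited table, the region at chr17:8768001-8803000 overlapping MFSD6L and PIK3R6 had a log2 fold of 1.03 with a false discovery rate of 5.79e-06, and 22 of its 26 windows were up. PIK3R6 encodes a regulatory subunit of phosphoinositide 3-kinase gamma. A 67 kb region inside DNAH2 had a log2 fold of 0.74, and 18 kb inside DNAH9 had 0.65. Both genes encode dynein heavy chains of motile cilia. The DNAH9 region lay in domains over 100 and 100% in siANP32B libraries, against 100 and 0% in siControl libraries. The others lay in LRRC75A, with a log2 fold of 0.49, or outside coding genes, nearest to NLRP1 (0.54), TMEM220 (0.53) and CACNG5 (0.40). Before the sparsely covered step at 20 to 25 Mb, 20 of 48 regions (41.7%) were called lower and 6 higher. After it, 99 of 152 regions (65.1%) were called lower and 1 higher. This division was made after the calls were seen and was not tested. At a false discovery rate of 0.01 the calls were 87 lower and 2 higher.

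One region was called mixed in the authors' deposited table. It spanned 98 kb over SLC47A2, a drug and cation exporter, ALDH3A1, an aldehyde dehydrogenase, and ULK2, an autophagy kinase (chr17:19693001-19791000). Its log2 fold was -0.55, with 6 windows up and 30 down of 78. It lay in domains over 100 and 100% in siANP32B cells and 99.0 and 95.9% in siControl cells.

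Sequence that was in both libraries of one group and neither of the other was a small part of the domains. It came to 1.81 Mb in 182 stretches for siANP32B alone and 0.358 Mb in 43 stretches for siControl alone, a net 1.45 Mb. Relative to the length in both siControl libraries these were 8.90 and 1.77%. On the other autosomes the same shares were larger, at 12.2 and 5.16%. The 4 libraries shared 18.0 Mb, which is 88.6% of the length in both siControl libraries, against 82.2% on the other autosomes. Without siANP32B replicate 2 the net was 4.36 Mb, and without siControl replicate 1 it was 3.17 Mb. With the common minimum score it was -3.03 Mb. The overlap of library pairs, as shared length over joint length, was 0.716 within siANP32B and 0.715 within siControl, and 0.649 to 0.725 across groups, so 1 pair across groups overlapped more than either pair of replicates.

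Most siANP32B-only sequence extended domains already present. Of the 182 stretches, 130 touched a siControl domain at 1 end and 36 at both ends, and 16 stood apart and held 17.6% of the length. The longest was an 86 kb stretch in SKAP1 (chr17:48384001-48470000), a T-cell adaptor gene beside the HOXB cluster, closing the gap between 2 siControl domains. Next came 62 kb in CA10, a carbonic anhydrase-related gene, 60 kb without a gene (chr17:73993001-74053000), 56 kb in CEP112, a centrosomal gene, and 54 kb in SDK2. The longest stretches standing apart were 50 kb at ZNF652, 49 kb at AIPL1, a photoreceptor gene, and 37 kb at PIK3R6 and PIK3R5 (chr17:8859001-8896000). The last lies in the neighbourhood of the region called higher at MFSD6L and PIK3R6.

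The siControl-only stretches were shorter, and 11 of 43 stood apart, holding 58.7% of the length. The longest were 26 kb at SLFN12L and SLFN14 (chr17:35529001-35555000), 26 kb in ABCA5 (chr17:69325001-69351000) and 26 kb without a gene. Others were 22 kb in FOXK2, 21 kb in DLG4, which encodes a synaptic scaffold, and 19 kb over STAT3 and CAVIN1. By gene content, 60.9% of siANP32B-only and 41.3% of siControl-only length lay in coding gene bodies. The whole chromosome had 54.1%, and the length in both siControl libraries had 36.9%. Sequence in a domain of a single library, of either group, had 60.8%, near the siANP32B-only share. The siControl-only length was 0.358 Mb in all.

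Of the 1169 coding genes annotated on chromosome 17, 327 (28.0%) had at least 50% of their length in domains in both siANP32B libraries, and 271 (23.2%) in both siControl libraries. The shares over all chromosomes were 17.3% in siANP32B cells and 13.9% in siControl cells. By library the numbers were 468 and 360 in siANP32B cells, against 366 and 309 in siControl cells, and the groups overlapped. Genes lying wholly in domains of all 4 libraries numbered 181 (15.5%, against 6.71% of all coding genes), and 404 had no domain in any library. Under the common minimum score the numbers were 96 in siANP32B cells and 157 in siControl cells.

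In all, 27 genes reached 50% in both siANP32B libraries and in neither siControl library, and 3 did the opposite. These are 2.31 and 0.257% of the chromosome's coding genes, and the same counts over all coding genes gave 2.22 and 0.604%. The counts over fewer libraries were larger: without siANP32B replicate 1 or 2 they were 42 and 119, and without siControl replicate 1 or 2 they were 72 and 37. The opposite set held 20, 9, 12 and 28 genes in the same order of libraries left out. LRRC46, SPATA20 and MRPL58 were covered over 100 and 100% in siANP32B cells and 0 and 0% in siControl cells. MRPL10, a mitochondrial ribosomal protein gene beside LRRC46, had 100 and 88.9% in siANP32B cells and 0 and 0% in siControl cells. CBX8, a Polycomb chromodomain gene, had 100 and 100% in siANP32B cells and 16.7 and 16.7% in siControl cells. PDK2, a kinase that restrains pyruvate dehydrogenase, had 100 and 100% in siANP32B cells and 21.1 and 21.1% in siControl cells. KPNA2, a nuclear import receptor, had 100 and 100% in siANP32B cells and 8.33 and 8.33% in siControl cells. The 3 genes of the opposite set were MYADML2 (0 and 0% in siANP32B, 100 and 100% in siControl), SLFN14 (0 and 0% in siANP32B, 66.7 and 100% in siControl) and PDE6G, a photoreceptor phosphodiesterase subunit (0 and 0% in siANP32B, 100 and 71.4% in siControl).

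**Figure D4:**
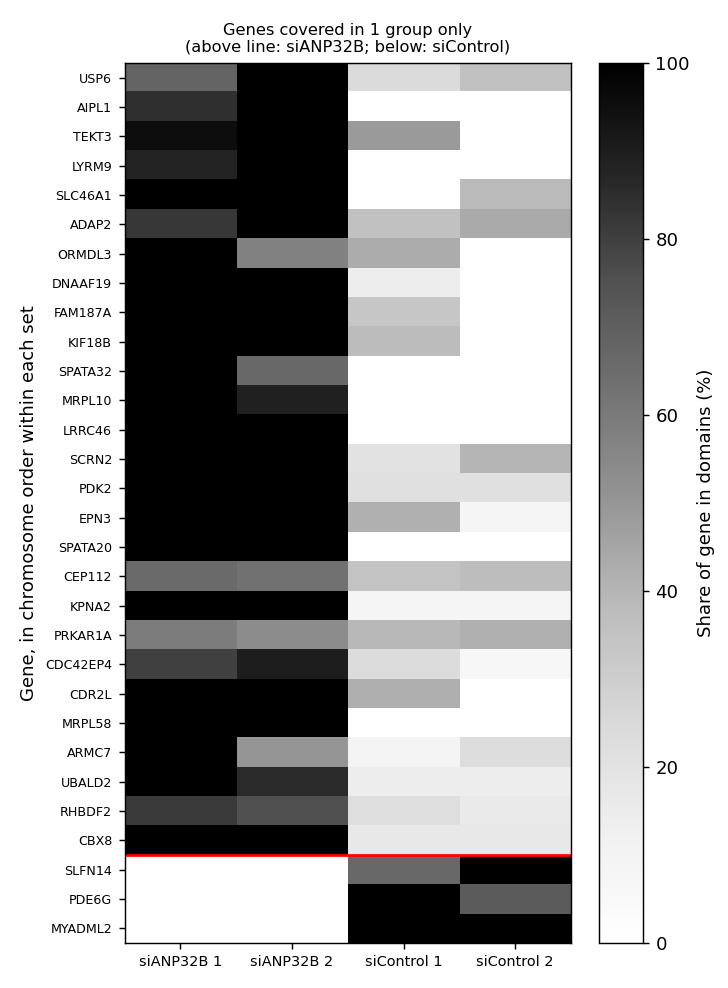
Share of each gene in domains (%, grey scale) in the 4 libraries, for the 27 coding genes reaching 50% in both siANP32B and neither siControl library (above the line) and the 3 of the opposite kind (below it). The selection fixes the direction, and several genes such as KIF18B and TEKT3 have partial cover in siControl replicate 1 (37.5 and 48.8%).

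Among the gene families, those of epithelial and hair differentiation lay almost wholly in domains in both groups. Of 27 type I keratin genes, 26 were covered in both siANP32B libraries and 25 in both siControl libraries, and 24 lay wholly in domains in all 4. KRT10, of the upper epidermis, was covered in neither group, at 40 and 0% in siANP32B cells and 20 and 0% in siControl cells. The hair keratin gene KRT32 had 100 and 100% in siANP32B cells and 100 and 33.3% in siControl cells. KRT19, which liver bile duct cells express, was covered over 100% in all 4. Of 34 keratin-associated protein genes, which encode hair matrix proteins, 32 were covered in both siANP32B and 32 in both siControl libraries. The exceptions were KRTAP9-6, KRTAP9-7 and KRTAP9-8, which have near-identical neighbours, so read placement there is uncertain. Of these 34 genes, 13 overlapped a region called lower in the authors' deposited table, the lowest log2 fold being -0.88 over 6 KRTAP4 genes (chr17:41079001-41136000). These 13 genes share 4 regions, and the other 21 overlapped no tested region. Over the chromosome 70 of 1169 coding genes (5.99%) overlapped a region called lower, which is 58.3% of the 120 that overlapped any tested region. KRT34 and KRT31 overlapped a region with a log2 fold of -0.77 in the same table. The motif TATAAA, searched on both strands of the 300 bases around the start site, was found in 29 of 33 keratin-associated promoters with an entry, in 102 of 824 chromosome 17 promoters (12.4%) and in 1525 of 15842 in the whole table (9.63%). Among the other lists with entries for at least 80% of their genes, it was found in 5 of 5 sarcomeric myosin, 2 of 4 ABCA, 1 of 10 olfactory receptor, 2 of 16 tumour and cell cycle and 2 of 25 housekeeping promoters. Of the 5 myosin promoters, 1 lay in domains in all 4 libraries.

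**Figure D5:**
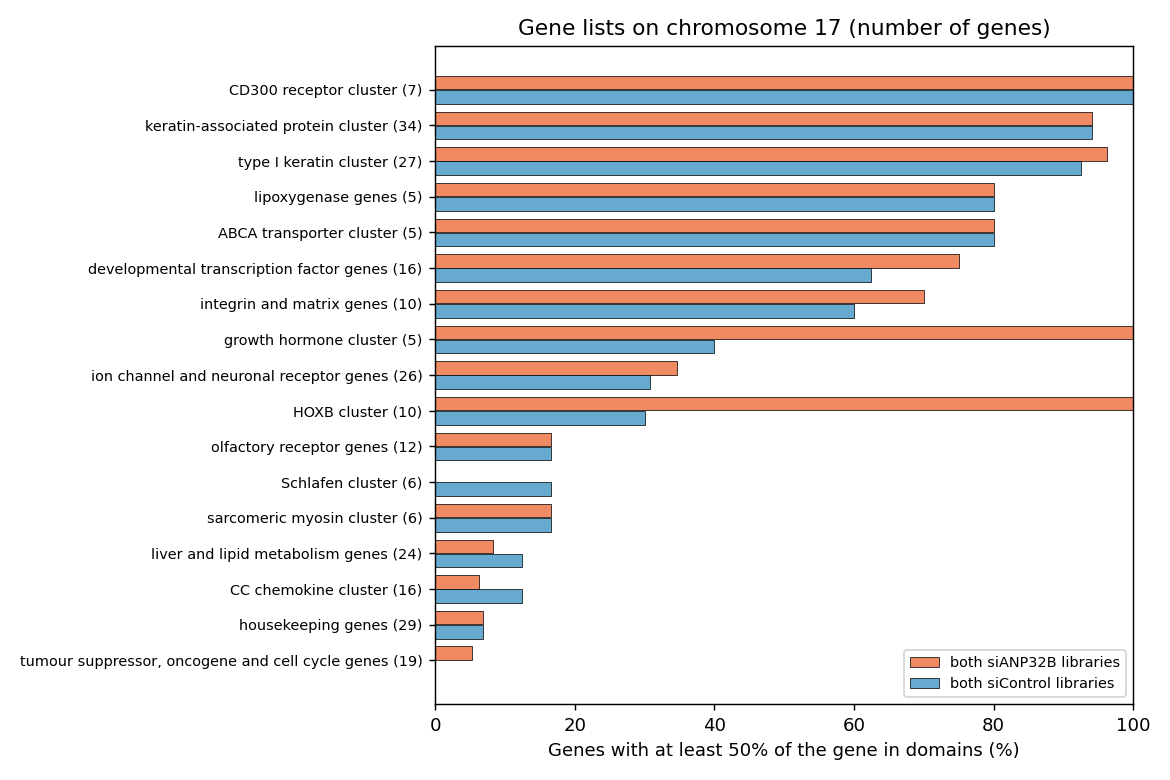
Share of the genes of each list (%) with at least 50% of their length in domains in both siANP32B libraries (upper bar) and both siControl libraries (lower bar), with the number of genes in brackets. CD300, keratin-associated and keratin genes lie above 90% in both groups, while the HOXB and growth hormone bars differ, and siControl replicate 2 had little or no domain over part of both clusters.

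The HOXB cluster differed between the siControl libraries. All 10 HOXB genes were covered over 100% in both siANP32B libraries, while 3 were covered in both siControl libraries. HOXB1, HOXB2 and HOXB13 had 100% in all 4. HOXB3 had 100 and 100% in siANP32B cells and 100 and 4.65% in siControl cells, and HOXB4 to HOXB9 had 100 and 100% in siANP32B cells and 100 and 0% in siControl cells. The difference thus rested on siControl replicate 2, and with that library left out 10 of 10 were covered in siControl cells. Of its microRNA genes, 2 are shown for their contrast within it, with seed bases 2 to 8 in capitals (RefSeq, GRCh38.p14).
hsa-miR-10a-5p: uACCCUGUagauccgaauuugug
hsa-miR-196a-5p: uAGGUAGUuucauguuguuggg
The MIR10A hairpin (chr17:48579838-48579947) lay in a domain in both siANP32B libraries and in siControl replicate 1, and in none in siControl replicate 2. The MIR196A1 hairpin (chr17:48632490-48632559) lay in domains in all 4. Of 95 microRNA hairpins on chromosome 17, 16 lay in domains in all 4 libraries, 48 in none and 1, MIR4522, in both siANP32B and neither siControl library. MIR2117 overlapped a region called lower, with a log2 fold of -0.80 in the authors' deposited table.

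The ABCA, CD300, lipoxygenase, growth hormone and developmental factor lists were covered to differing degrees. The ABCA cluster had 4 of 5 genes covered in siANP32B and 4 of 5 in siControl libraries, and ABCA8, ABCA9, ABCA6 and ABCA10 overlapped regions called lower, with log2 folds from -0.77 at ABCA8 to -0.42 at ABCA9 and ABCA6 in the authors' deposited table. ABCA5 stood apart, at 3.57 and 0% in siANP32B cells and 66.7 and 3.57% in siControl cells. All 7 CD300 receptor genes, most of them known from myeloid cells, were covered in both groups. Of the lipoxygenase genes, which oxidise fatty acids, 4 of 5 were covered in both groups, and ALOX15B and ALOX12B overlapped a region with a log2 fold of -0.65 in the authors' deposited table. The growth hormone cluster had 5 of 5 genes covered in siANP32B and 2 of 5 in siControl libraries. Again siControl replicate 2 decided this, at 0% for CSH2, GH2 and CSH1, and these genes are near-identical copies. Developmental transcription factors were covered in 12 of 16 cases in siANP32B and 10 of 16 in siControl libraries, with SOX9, TBX4, TBX21 and FOXJ1 at 100% in all 4. TBX2 had 100 and 100% in siANP32B cells and 27.3 and 100% in siControl cells, and ETV4 had 100 and 85.0% in siANP32B cells and 100 and 10.0% in siControl cells.

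Among adhesion and channel genes, 4 of 10 integrin and matrix genes and 4 of 26 ion channel and receptor genes overlapped a tested region, and each of these genes overlapped one called lower, where 58.4% of all tested regions were called lower. Of 10 integrin and matrix genes, 7 were covered in siANP32B and 6 in siControl libraries. In the authors' deposited table PECAM1, an endothelial adhesion gene, overlapped 2 regions called lower, the stronger at -0.84, ICAM2 had -0.66, COL1A1 -0.54 and ITGA3 -0.54. ITGA2B had 100 and 100% in siANP32B cells and 100 and 0% in siControl cells. Of 26 ion channel and neuronal receptor genes, 9 were covered in siANP32B and 8 in siControl libraries. The skeletal muscle sodium channel gene SCN4A had 100% in all 4 and a log2 fold of -0.90 in the authors' deposited table, and CACNA1G, a T-type calcium channel gene, had -0.54.

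Few genes with general or liver functions were covered in both libraries of a group. Of all coding genes on chromosome 17, 28.0% were covered in siANP32B and 23.2% in siControl libraries. For 34.6% of them no library had a domain. Of 29 housekeeping genes for the ribosome, proteasome, translation and splicing, 2 were covered in siANP32B and 2 in siControl libraries, and 13 had 0% in all 4. EIF1, which lies within the keratin stretch, was the only one at 100% in all 4. Of 24 liver and lipid metabolism genes, 2 were covered in siANP32B and 3 in siControl libraries. In this list 8 had 0% in all 4, a share near that of the whole chromosome. FASN, ACLY, ACACA and SREBF1, which drive fatty acid synthesis, were among these 8. G6PC1 and ALDH3A1 had 100% in all 4, and the G6PC1 region was not called, at a log2 fold of -0.22. GCGR, the glucagon receptor gene, had 0 and 100% in siANP32B cells and 100 and 100% in siControl cells, with a region called lower at -0.66 in the authors' deposited table. Of 19 tumour and cell cycle genes, 1 was covered in siANP32B and 0 in siControl libraries: PRKAR1A, a protein kinase A subunit, with 59.0 and 53.2% in siANP32B cells and 38.8 and 41.7% in siControl cells.

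Some clusters were covered in part, with differences between replicates as large as those between groups. Of 16 CC chemokine genes, which attract leukocytes, 1 was covered in siANP32B and 2 in siControl libraries. CCL3 had 100 and 100% in siANP32B cells and 100 and 0% in siControl cells, while CCL5 had 90.0 and 0% in siANP32B cells and 100 and 100% in siControl cells. Of 6 sarcomeric myosin genes only MYH4, of fast muscle fibres, was covered, at 100 and 100% in siANP32B cells and 100 and 85.2% in siControl cells. Its neighbour MYH8 had 3.13 and 0% in siANP32B cells and 0 and 0% in siControl cells, and MYH1 had 0 and 0% in siANP32B cells and 0 and 40.7% in siControl cells. Of 12 olfactory receptor genes, OR4D1 and OR4D2 were covered over 100% in all 4 libraries, and the others in at most 1 library per group. Of 6 Schlafen genes, 0 were covered in siANP32B and 1, SLFN14, in siControl libraries.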

How the data were processed

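MacroH2A1 CUT&RUN libraries of HepG2 cells were compared between siANP32B and siControl (2 libraries each). The submitters' processing notes list the build hg38 and, with no roles or versions, edgeR, SICER, deepTools, SAMtools, Bowtie2 and Trim Galore. The authors deposited 1 list of domains per library, with a caller score per domain whose scale no label or header gives. Also deposited by the authors was a table of 4474 regions with a log2 fold of a representative window, counts of windows and p-values. The deposited false discovery rates equalled the Benjamini-Hochberg values of its p-values over all regions to within 1.11e-15. Library scaling and the domain caller's control are, in the sources used here, not given.

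Domains were laid on a 1 kb grid, and overlaps, covered length and genes were computed with Python 3.11.15, numpy 2.4.6 and pandas 2.3.3. Genes came from RefSeq (GRCh38.p14), and a gene counted as covered at 50% of its length. Regions were called at a false discovery rate of 0.05. Group differences were tested by exact two-sided permutation. The overlap and permutation steps were tested on simulated domains with known answers. Gene members of stretches and regions were named by fixed rules: the 10 regions called lower with the smallest p-values and up to 10 called higher, the 10 longest stretches per set, the extreme steps, and up to 5 members per gene list. Members and lists were chosen with earlier results of these data known, and some single genes (for example KRT10, ABCA5 and GCGR) were named after their values were seen. RefSeq promoter entries were found for 824 of 1169 coding genes, which is under 80%, so comparisons of GC or CpG content over sets of genes are void and not reported, and a motif is given for lists with entries for at least 80% of their genes. Alternatives left out single libraries, filtered or joined domains, shifted the steps, moved thresholds and used the replicate number as a block.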

Additional observations from a re-analysis of the deposited data

How the results depend on the processing

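Of 46 alternative values of group differences and ratios, 42 kept their direction, 10 of them at a size (for the ratio, its distance from 1) more than 1.5 times larger or smaller, and 4 turned round. Many of the 42 were fixed in advance and show no stability. Where groups did not overlap, leaving out a library could not turn the direction. Joining domains, and for differences the replicate block, gave back the main value. For such measures only the filters on score or length could turn it. Of 42 alternative values of counts, step shares and the net length, 25 stayed within 1.5 times, 16 moved further and 1 turned round. Number of domains, median length and long-domain share kept their direction under each alternative run, with sizes from -113 to -18 domains, 15.0 to 27.5 kb and 5.38 to 23.2 points, and joining domains within 5 kb changed nothing because the smallest gap was 6 kb. With the common minimum score, covered length differed by -6.56 Mb, the share relative to other autosomes was 0.829 times that of siControl, the net length in one group only was -3.03 Mb, and 96 genes were covered in siANP32B and 157 in siControl libraries. With equal numbers of best-scored domains (3702 per library) the relative share was 0.846 and the net length 0.382 Mb. The cause was not tested. Leaving out single libraries gave a covered-length difference of 1.72 to 5.68 Mb, a relative share of 0.941 to 1.08, a net length of 1.37 to 4.36 Mb and 58.8 to 94.1% of steps with siANP32B above siControl. It gave 37 to 119 genes covered in siANP32B only and 9 to 28 in siControl only. Such sets and step shares over fewer libraries are larger by construction. With steps shifted by 2.5 Mb the share of steps was 44.4%. HOXB genes covered in siControl libraries numbered 3 to 10. At a false discovery rate of 0.01, 2 regions were called higher. Calls of the deposited table could not be remade without a library, since it has no values per library. The exact tests cannot pass 0.05 at this size, so they say nothing about stability. The labels do not say that replicate numbers mark shared cultures. Same-numbered libraries deviated together over 17 chromosome 17 steps (correlation 0.685) and less over 587 autosomal steps (0.285). With a replicate block, covered length differed by 3.70 Mb (exact sign-flip p = 0.5) and domain number by -67.5. Median length differed by 18.5 kb and long-domain share by 21.1 points. These equal the main values by construction, since the mean of paired differences is the difference of the group means. The relative share was 1.01. The net length has no such version. Taken over same-numbered pairs it becomes the covered-length difference, 3.70 Mb, a different quantity that is counted above as moved. Read depth is unknown and limits every call. Alternatives for the long-domain share, and each count without single libraries for steps and genes, were chosen after seeing the data.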
